A study of Homo sapiens with 6 samples.

Results

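The aminoacyl-tRNA synthetases examined here are 35 enzymes, 19 cytosolic and 16 mitochondrial, taken by gene symbol as every probe set of the array that the platform annotation assigns to exactly 1 of them. Of these, 32 genes were measured, 17 cytosolic and 15 mitochondrial, on 64 of the 41751 probe sets, out of 18338 genes in all. MARS1, QARS1 and TARS2 had no such probe set, because 5 probe sets that carry their symbols also carry that of a microRNA. Each gene was tested for a difference between 2 stable lines of HEK293, an established human embryonic kidney line. The control line carries a control vector and the myocilin line a vector that expresses myocilin, a secreted olfactomedin-domain protein, and both are Tet-on lines kept in hygromycin B and G418, in which doxycycline switches the inserted gene on. The protocols, worded alike for the lines, give 0.2 or 1 µg/ml doxycycline for 48 h; the dose behind each array is not given, and the drug is named in the descriptions of the myocilin samples alone. There were 3 Affymetrix HG-U133 Plus 2.0 arrays per line. The labels do not say whether a line's 3 arrays hybridised separate cultures. The p-values therefore measure only the spread between arrays, which may be technical. Each construct is represented by 1 line, and myocilin cannot be told apart from other differences between the lines.

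Aminoacyl-tRNA synthetases attach each amino acid to its transfer RNA, the step that fixes the meaning of the genetic code. Most amino acids have separate nuclear genes for the cytosolic enzyme and for the enzyme imported into mitochondria, while GARS1 and KARS1 supply both compartments from 1 gene. Several cytosolic enzymes sit together in the multisynthetase complex. The enzymes fall into class I and class II by the fold of their catalytic domain. When a tRNA stays uncharged, the kinase GCN2 (EIF2AK4) phosphorylates eIF2, and the transcription factor ATF4 then raises genes of amino acid supply, many cytosolic synthetases among them. ATF4 acts with C/EBP partners at an element whose core reads TGATGNAA.

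That core was looked for, on both strands, in the RefSeq promoter table of GRCh38.p14, which gives 250 bases before to 50 bases after each start and held 30 of the 35 genes; AARS2, LARS1, VARS1, VARS2 and YARS1 had no entry. The stricter form TGATGCAA was found in 6 of 16 cytosolic genes (37.5%), 0 of 14 mitochondrial genes and 295 of all 27305 genes (1.08%). TGATGNAA, which includes every TGATGCAA, added GARS1 among cytosolic genes and YARS2 among mitochondrial ones, against 4.46% of all genes. The cyclic AMP type core TGACGTCA was in 0 of the 30 genes and in 2.25% of all genes. A match is a description of letters and not a binding site. The windows below are shown because 6 of the 7 belong to cytosolic genes whose values follow, and YARS2 is the only mitochondrial match. Each reads 5′ to 3′ along the gene's strand, with the match in capitals, either as TGATGNAA or as its reverse complement, up to 30 bases on each side, and cut at the transcript start or at the end of a match that lies beyond it.
AARS1: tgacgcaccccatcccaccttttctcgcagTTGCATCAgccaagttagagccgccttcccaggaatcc
CARS1: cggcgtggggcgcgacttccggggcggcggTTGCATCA
GARS1: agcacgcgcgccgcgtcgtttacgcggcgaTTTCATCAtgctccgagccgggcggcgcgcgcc
IARS1: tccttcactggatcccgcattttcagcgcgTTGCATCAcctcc
NARS1: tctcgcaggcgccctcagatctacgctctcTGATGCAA
TARS1: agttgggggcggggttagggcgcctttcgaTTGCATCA
YARS2: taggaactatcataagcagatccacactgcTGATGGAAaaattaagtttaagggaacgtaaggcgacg
The windows lie at chr16:70289656-70289723 on the minus strand for AARS1, chr11:3057418-3057455 (minus) for CARS1, chr7:30594815-30594877 (plus) for GARS1, chr9:92293698-92293740 (minus) for IARS1, chr18:57621815-57621852 (minus) for NARS1, chr5:33440937-33440974 (plus) for TARS1 and chr12:32756057-32756124 (minus) for YARS2. The match begins 187, 2, 33 and 13 bases before the start in AARS1, CARS1, GARS1 and IARS1, 197 bases before it in YARS2, and at base 15 and base 3 of the transcript in NARS1 and TARS1. Some genes have more than 1 start, with 39 promoters listed for the 30 genes, and each distance is to the start of the promoter that held the match. For GARS1 and TARS1 that start lies inside the gene, whose first listed base is 30594735 on chromosome 7 and 33440696 on chromosome 5. MARS1 also held TGATGCAA but has no value here.

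Values are the authors' centred values, read as log2 and as centred on each probe set, which compare arrays but give no level. Detection and the HEK293 identity could not be checked from them. MYOC, the induced gene, read -6.71, -8.32 and -8.29 in the control line against 0.21, 0.20 and 0.24 in the myocilin line, which matches the labels. Correlations over probe sets were 0.409 to 0.464 between control arrays and 0.513 to 0.608 between myocilin arrays. Over all genes, 15.6% passed the threshold (limma, Benjamini-Hochberg adjusted p under 0.05), 7.35% lower and 8.28% higher in the myocilin line, and the 2 lines did not overlap for 34.9%.

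Cytosolic and mitochondrial enzymes differed in which calls they held, a difference that was not itself tested. Among the 17 cytosolic enzymes 5 fell, 1 rose and 11 did not pass the threshold, with a median log2 difference (myocilin minus control) of -0.09. The largest fall, GARS1, and the only rise, KARS1, are counted here as cytosolic although they also supply mitochondria. At an unadjusted p under 0.05 in limma, 7 cytosolic enzymes were lower and 4 higher. A Welch test per gene after adjustment called 0 of them in either direction. Among the 15 mitochondrial enzymes 0 fell, 2 rose and 13 did not pass, with a median of 0.04 (limma; at an unadjusted p under 0.05, 1 lower and 3 higher, and 0 in either direction by a Welch test per gene after adjustment). Estimates lay below 0 for 10 of the 17 and 6 of the 15, beside 44.7% of all genes. Lower calls were thus 29.4% of cytosolic and 0% of mitochondrial enzymes beside 7.35% of all genes, whose median was 0.02. At a share of 7.35%, 0 lower calls among 15 says nothing particular about the mitochondrial enzymes. The 1 cytosolic and 2 mitochondrial rises stand beside 8.28% higher among all genes. All differences were small, from -0.42 to 0.30 among cytosolic and -0.15 to 0.27 among mitochondrial enzymes, at most 1.34-fold. Changed genes as a whole had a median absolute difference of 0.32.

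**Figure D1:**
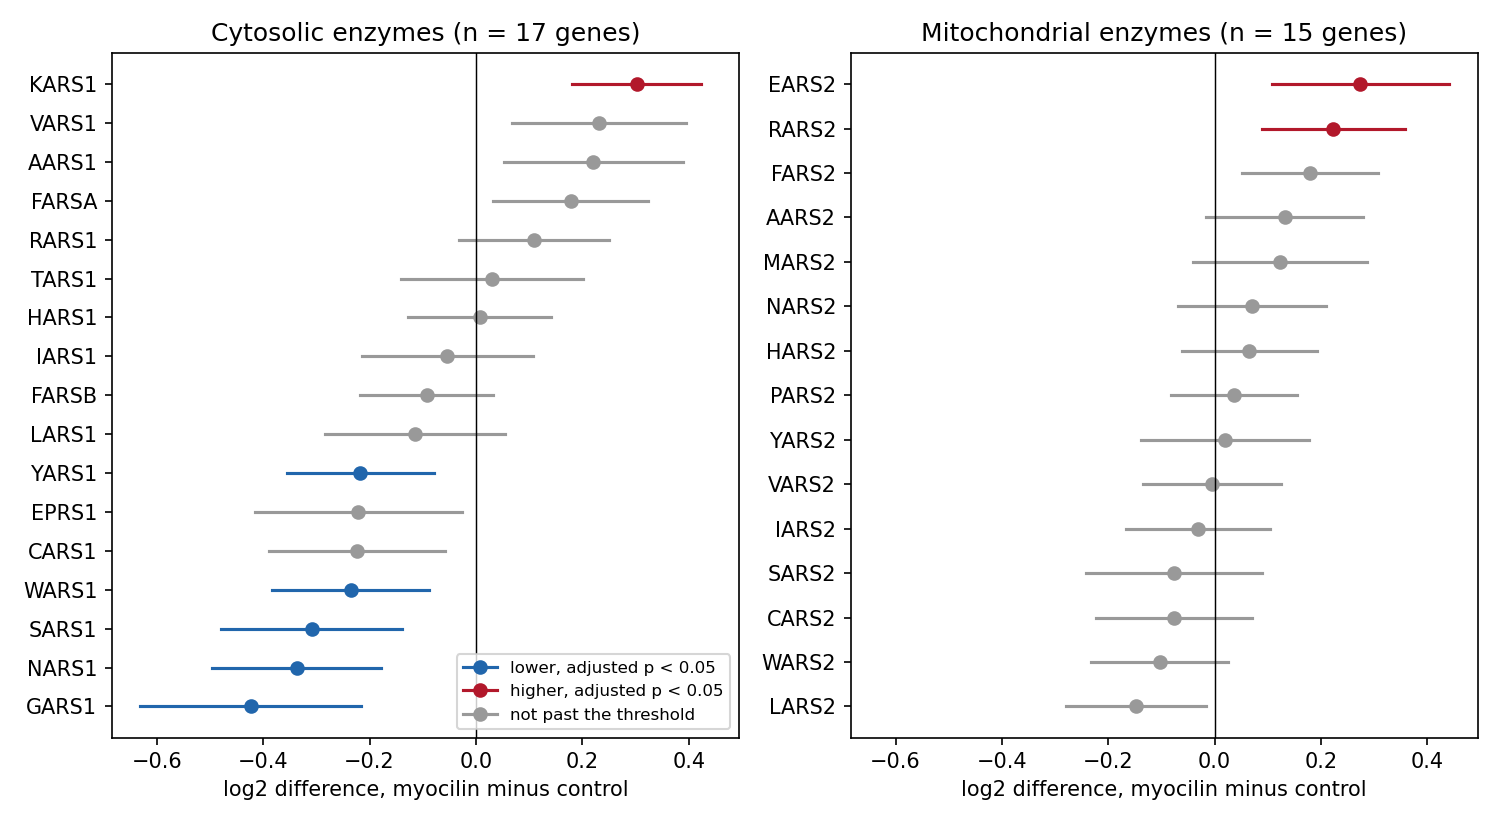
Log2 difference (myocilin minus control, horizontal axis) of each measured synthetase gene, cytosolic on the left and mitochondrial on the right; points are limma estimates over 3 arrays per line, bars 95% confidence intervals. GARS1, NARS1, SARS1, WARS1 and YARS1 lie below 0 and KARS1, EARS2 and RARS2 above it past the threshold, and the other 24 genes are grey.

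GARS1, the glycyl-tRNA synthetase of cytosol and mitochondria, fell most. It read 0.16, 0.46 and 0.09 in the control line against -0.18, -0.25 and -0.13 in the myocilin line. Every control value lay above every myocilin value, and control array 2 stood highest. The difference was -0.42 ± 0.09 on the log2 scale (SE, adjusted p = 0.01514), or 1.34-fold lower. NARS1, the asparaginyl enzyme, read 0.10, 0.32 and 0.14 against -0.19, -0.10 and -0.16, a difference of -0.34 ± 0.07 (SE, adjusted p = 0.01261). SARS1, the seryl enzyme, read 0.11, 0.33 and 0.09 against -0.17, -0.17 and -0.06, a difference of -0.31 ± 0.08 (SE, adjusted p = 0.02467). In both genes the lines did not overlap and control array 2 was again the highest. GARS1, NARS1 and SARS1 each rest on 1 probe set.

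WARS1, the tryptophanyl enzyme, which interferon is known to induce, read -0.02, 0.17 and -0.0039 in the control line against -0.20, -0.21 and -0.16 in the myocilin line. The difference was -0.24 ± 0.07 (SE, adjusted p = 0.04036). YARS1, the tyrosyl enzyme, read 0.13, 0.14 and 0.09 against -0.16, -0.12 and 0.00, a difference of -0.22 ± 0.06 (SE, adjusted p = 0.04265). The lines did not overlap for either gene. The control arrays of YARS1 lay within a narrow range only as the mean of 2 probe sets. Both calls were close to the threshold. WARS1 had 2 lower probe sets, at -0.20 and -0.27, of which the second passed. The probe sets of YARS1 were apart, at -0.07 (adjusted p = 0.6583) and -0.36 (adjusted p = 0.03432). The first read -0.09, 0.16 and 0.02 on the control arrays, with the lines overlapping. The second read 0.35, 0.13 and 0.16, without overlap.

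KARS1, the lysyl enzyme that serves both compartments and sits in the multisynthetase complex, was the cytosolic member that rose. It read -0.28, -0.26 and -0.22 in the control line against 0.0089, 0.06 and 0.08 in the myocilin line. The arrays of a line lay close together, and the lines were well apart. The difference was 0.30 ± 0.05 (SE, adjusted p = 0.006392), with both probe sets past the threshold at 0.27 and 0.34. The 2 mitochondrial genes that rose were EARS2, the glutamyl enzyme, and RARS2, the arginyl enzyme. EARS2 read -0.12, -0.29 and -0.17 against 0.19, 0.07 and -0.02, a difference of 0.27 ± 0.07 (SE, adjusted p = 0.03592). RARS2 read -0.03, 0.0031 and 0.09 against 0.30, 0.21 and 0.22, a difference of 0.22 ± 0.06 (SE, adjusted p = 0.03457). Neither gene's lines overlapped. Of the 4 probe sets of EARS2, 2 passed, at 0.36 and 0.38, and 2 did not, at 0.11 and 0.25. Of the 5 of RARS2, 2 passed, at 0.27 and 0.40, and 3 did not, at 0.07 to 0.26.

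**Figure D2:**
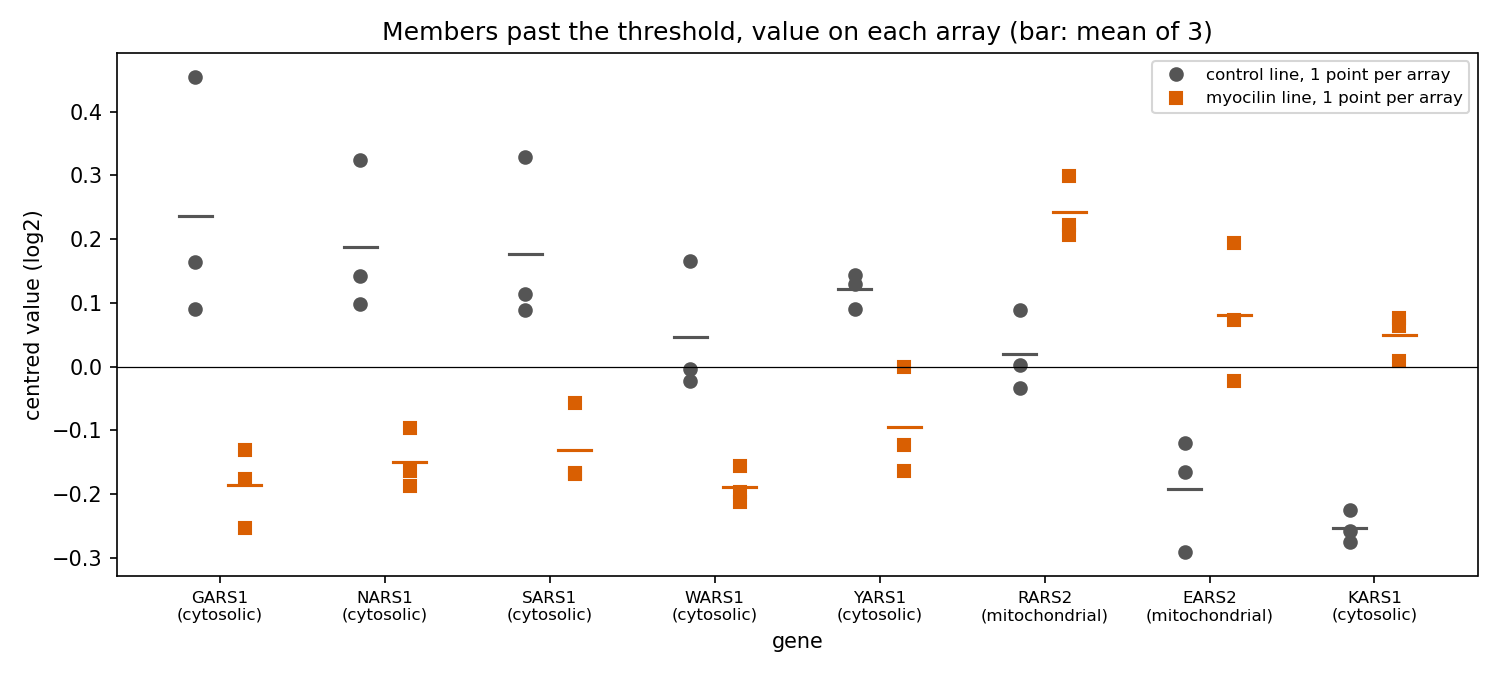
Centred log2 value (vertical axis) of the 8 synthetase genes past the threshold on each of the 6 arrays; circles are control and squares myocilin arrays, and short bars the mean of 3. The lines do not overlap for any of the 8, and control array 2 is the highest circle for GARS1, NARS1, SARS1, WARS1 and, by little, YARS1.

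The count of lower cytosolic enzymes depended on single arrays. It was 2 without control array 2, 3 without control array 3, 1 without myocilin array 1 and 1 without myocilin array 2, where fewer genes passed overall (8.80% to 11.0%). Without control array 2 the remaining 2 were GARS1 and NARS1, and AARS1 joined KARS1 among the rises (0.30, adjusted p = 0.02265). Without myocilin array 1 only GARS1 passed among the falls, NARS1 reading -0.32 (adjusted p = 0.0535), and without myocilin array 2 only NARS1, GARS1 reading -0.39 (adjusted p = 0.0558). SARS1 read -0.23, -0.29 and -0.29 without control array 2, myocilin array 1 and myocilin array 2 (adjusted p = 0.06159, 0.08568 and 0.07884). WARS1 and YARS1 lost the call without most single arrays: WARS1 read -0.26 to -0.18 without control arrays 2 and 3 and each myocilin array (adjusted p = 0.06311 to 0.1143), and YARS1 -0.23 to -0.18 without each control array and myocilin arrays 1 and 2 (adjusted p = 0.07838 to 0.1506). EPRS1 passed without control array 1 (-0.31, adjusted p = 0.03779). KARS1 passed without any single array. EARS2 did not pass without control array 2, control array 3, myocilin array 1 or myocilin array 2 (0.22 to 0.29, adjusted p = 0.07416 to 0.1269), and RARS2 passed only when the array left out was control array 3. No member changed sign while past the threshold in any alternative run.

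The mean over cytosolic members was -0.02, 0.10 and -0.0032 in the control line against -0.07, -0.05 and 0.0012 in the myocilin line. The means of the 2 lines overlapped, and control array 2 stood apart from the other controls. It was the highest control array for 11 of 17 cytosolic members (64.7%), 3 of 15 mitochondrial members (20%) and 33.6% of all genes; the part of this array in the result is given by the values without it, above. The mitochondrial mean was -0.04, -0.05 and 0.02 in the control line against 0.03, 0.03 and 0.01 in the myocilin line.

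The cytosolic enzymes that did not pass the threshold lay on both sides of 0, 5 below and 6 above, from -0.22 to 0.23. CARS1, the cysteinyl enzyme, read 0.08, 0.27 and 0.02 in the control line against -0.14, -0.11 and -0.05 in the myocilin line, without overlap (-0.22, adjusted p = 0.07041). Of its 4 probe sets 3 lay at -0.38 to -0.26 and 1 at 0.04. EPRS1, the fused glutamyl and prolyl enzyme, read -0.12, 0.23 and 0.04 against -0.22, -0.12 and -0.18 (-0.22, adjusted p = 0.1182). Its lines overlapped slightly, with control array 1 below the highest myocilin array. VARS1, the valyl enzyme, read 0.17, 0.11 and 0.03 against 0.23, 0.31 and 0.46 (0.23, adjusted p = 0.06055), and 1 of its 2 probe sets passed at 0.33. AARS1, the alanyl enzyme, read -0.20, 0.00 and -0.27 against 0.04, 0.05 and 0.10 (0.22, adjusted p = 0.07808). FARSA and FARSB, the catalytic and partner subunits of the phenylalanyl enzyme, lay on opposite sides of 0, at 0.18 (adjusted p = 0.09719) and -0.09 (adjusted p = 0.306), though each had lines that did not overlap. Nearest to 0 were HARS1 at 0.0069, TARS1 at 0.03 and IARS1 at -0.05, the histidyl, threonyl and isoleucyl enzymes, with 95% intervals of -0.13 to 0.14, -0.14 to 0.20 and -0.21 to 0.11. LARS1 and RARS1, the leucyl and arginyl enzymes, read -0.11 and 0.11.

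The 13 mitochondrial enzymes below the threshold spanned -0.15 to 0.18. LARS2, the leucyl enzyme, read -0.04, 0.05 and 0.08 in the control line against -0.08, -0.12 and -0.15 in the myocilin line, without overlap (-0.15, adjusted p = 0.1217). FARS2, the phenylalanyl enzyme, read -0.02, -0.04 and -0.12 against 0.09, 0.10 and 0.16, also without overlap (0.18, adjusted p = 0.06309), and WARS2, the tryptophanyl enzyme, was the third such gene, at -0.10. For CARS2, the cysteinyl enzyme, the mean of -0.08 (adjusted p = 0.4788) joined probe sets that differed: 1 fell by 0.36 (adjusted p = 0.01171), with control arrays at 0.08, -0.01 and 0.12 and myocilin arrays at -0.34, -0.28 and -0.28, while the other 3 lay at -0.06 to 0.16. AARS2 and MARS2, the alanyl and methionyl enzymes, read 0.13 and 0.12, and SARS2 and IARS2, the seryl and isoleucyl enzymes, -0.08 and -0.03. The asparaginyl, histidyl, prolyl and tyrosyl enzymes NARS2, HARS2, PARS2 and YARS2 read 0.07, 0.07, 0.04 and 0.02, none past the threshold. VARS2, the valyl enzyme, lay nearest to 0 at -0.0049, with a 95% interval of -0.13 to 0.13.

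Probe by probe, 6 of the 33 cytosolic probe sets fell and 3 rose, and 1 of the 31 mitochondrial probe sets fell and 4 rose, beside 5.56% lower and 5.46% higher among all 41751. These fell in 6 cytosolic genes lower and 2 higher, VARS1 being the second higher gene and CARS1 the sixth lower one, and in 1 mitochondrial gene lower and 2 higher. Of 17 members with several probe sets, 4 (CARS1, CARS2, FARSB and TARS1) had estimates on both sides of 0, and in 0 did 1 probe set rise while another fell. The span within a gene was 0.01 to 0.52, with a median of 0.15, which is as wide as many of the differences between the lines.

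**Figure D3:**
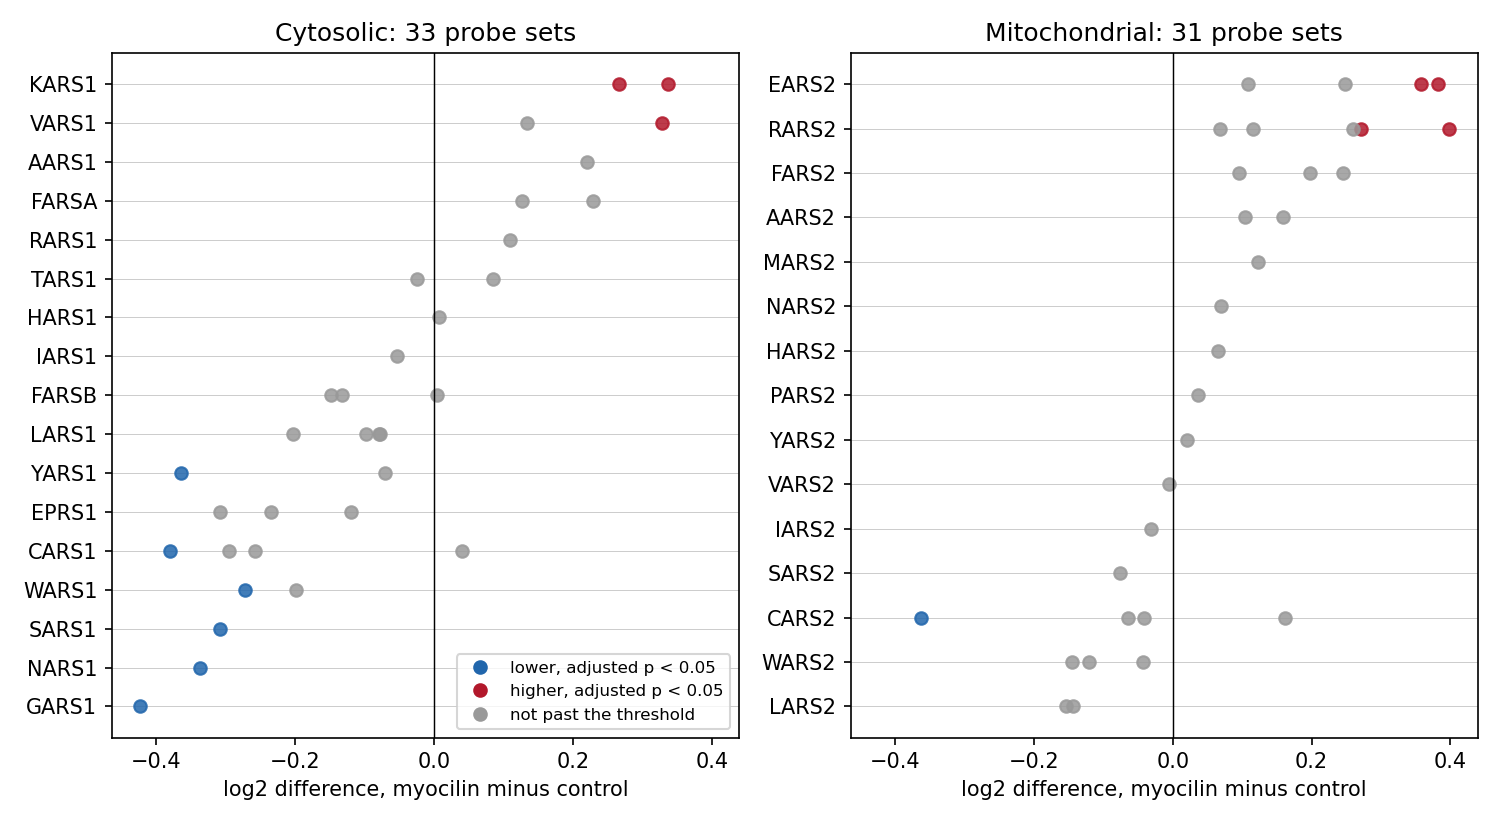
Log2 difference (horizontal axis) of every probe set of each synthetase gene, 33 cytosolic on the left and 31 mitochondrial on the right; each point is 1 probe set, coloured by its own limma call over all probe sets. The widest spread is that of CARS2, 0.52 between its lowest and highest probe set.

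Of 7 enzymes listed for the multisynthetase complex 5 were measured: 0 fell and KARS1 rose (limma; at an unadjusted p under 0.05, 1 lower and 1 higher), with a median of -0.05. All 5 cytosolic falls were among the 12 cytosolic enzymes not listed for that complex, 41.7% of them beside 7.35% of all genes, with a median of -0.15. At that share among all genes, 0 of 5 says nothing particular about the complex. The scaffold protein gene AIMP1, the measured one of 3 scaffold genes listed, read 0.05 (adjusted p = 0.6279). By catalytic class, 2 of 7 cytosolic class I enzymes fell (WARS1 and YARS1), and 3 of 9 class II enzymes fell and 1 rose, beside 7.35% lower and 8.28% higher among all genes. The differences between these shares were not tested.

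Where an amino acid has both enzymes among the measured members, 15 cytosolic and mitochondrial pairs could be set side by side, EPRS1 and FARS2 each standing in 2. The cytosolic enzyme moved below its mitochondrial partner, relative to the control line, in 12 of the 15. No matching share was computed over other pairs of genes, and pairs that share a gene are not independent. This count therefore adds nothing to the group medians above. For asparagine, NARS1 differed by -0.34 and NARS2 by 0.07. The value of NARS1 minus NARS2 was 0.14, 0.44 and 0.24 in the control line against -0.09, -0.09 and -0.22 in the myocilin line, a change of -0.41. For glutamate, EPRS1 minus EARS2 was -0.0003, 0.52 and 0.20 against -0.41, -0.19 and -0.16, a change of -0.49. In both pairs every control value lay above every myocilin value. NARS1 lies on chromosome 18 and EARS2 on chromosome 16, where many genes moved the same way (below). With chromosomal neighbours subtracted, NARS1 read -0.20 and EARS2 0.15, and the pairs were not recomputed. Valine went the other way, VARS1 minus VARS2 changing by 0.24, from 0.22, 0.06 and 0.02 to 0.28, 0.28 and 0.44. For phenylalanine, FARSA and FARS2 both read 0.18 and their difference changed by -0.0012. In all, 6 pairs did not overlap between the lines, 5 with the cytosolic enzyme lower. These include FARSB and FARS2, with FARS2 on chromosome 6 (0.18, and 0.06 with neighbours subtracted). WARS1 and WARS2, and EPRS1 and PARS2, lie outside chromosomes 6, 16 and 18. Single genes did not overlap in 34.9% of cases, and no such share was computed for differences between 2 genes. Each of the 6 pairs gave p = 0.1 by a two-sided exact permutation test over the 6 arrays, the smallest this design allows (adjusted p = 0.25 over the 15 pairs). A p under 0.05 could not be reached by any pair, so the test does not tell the pairs apart from no change. The genes HARS1 and HARS2, which lie next to each other on chromosome 5, read 0.0069 and 0.07.

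**Figure D4:**
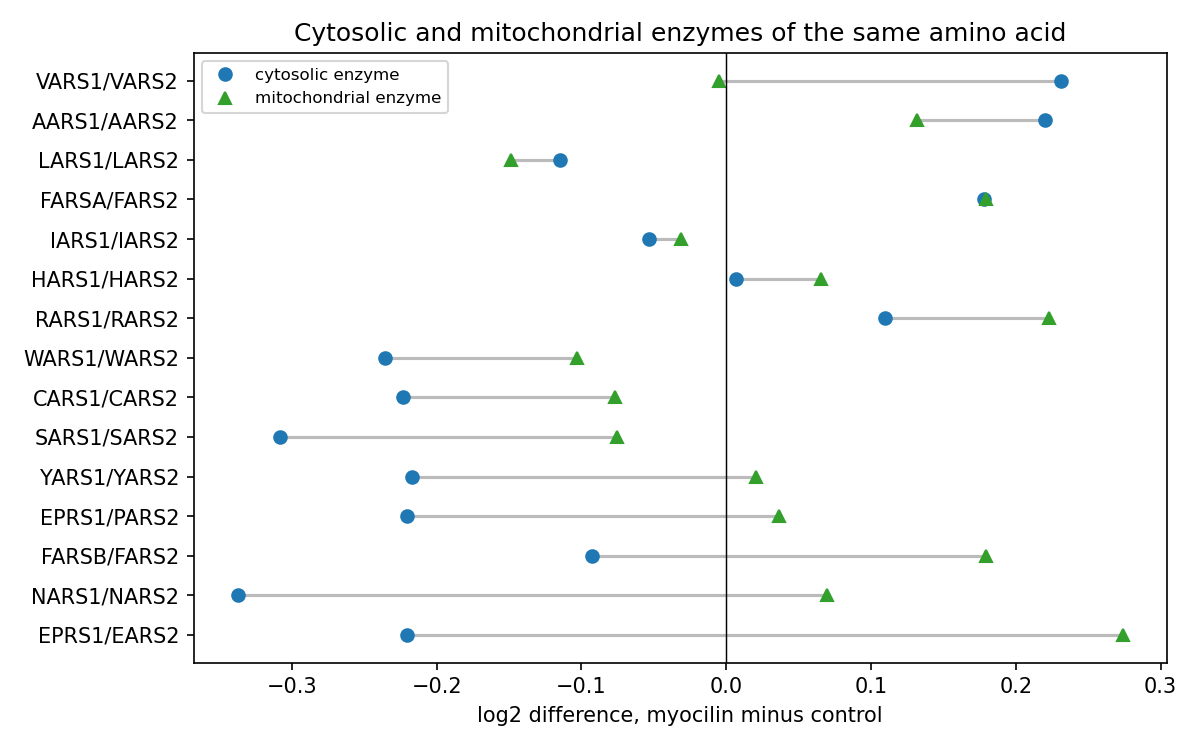
Log2 difference (horizontal axis) of the cytosolic enzyme (circle) and the mitochondrial enzyme (triangle) of the same amino acid for 15 pairs, each point a gene's estimate over 3 arrays per line. The pair EPRS1/EARS2 has the largest gap, 0.49, and FARSA/FARS2 the smallest. EARS2 lies on chromosome 16, which was higher as a block in the myocilin line.

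The members differed by chromosome. All 3 that rose lie on chromosomes 6 and 16, which were higher as a block in the myocilin line: 22.7% of 1006 genes rose on chromosome 6 and 27.5% of 777 on chromosome 16, beside 8.28% overall. Chromosomes 9, 10 and 22 also had raised shares, at 16%, 21.3% and 16.7%, with IARS1 the only measured member on them. Of the 8 measured members on chromosomes 6 and 16 (KARS1, EARS2 and AARS1 on 16, and RARS2, VARS1, FARS2, AARS2 and VARS2 on 6), 7 had estimates above 0, with a median of 0.22. The median over all genes was 0.09 on chromosome 6 and 0.14 on chromosome 16. NARS1 lies on chromosome 18, where 48.2% of 274 genes fell. On the remaining chromosomes, 4 of 23 members fell and 0 rose (limma), with a median of -0.08. Over all chromosomes 7.35% of genes fell and 8.28% rose. The shares over all genes of the remaining chromosomes were not computed, so nothing particular to the members is read from these counts. Chromosomes 6, 16 and 18 were set apart after their values had been seen.

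For each member the 50 nearest genes on its chromosome, other synthetases left out, gave a local reference. Around KARS1, 14 of the 50 rose and 0 fell, with a median of 0.15, and KARS1 minus its neighbours differed by 0.18 ± 0.05 (SE, adjusted p = 0.05915). For EARS2 the neighbours' median was 0.15 and the remainder 0.15 (adjusted p = 0.2622), and for RARS2 0.17 and 0.09 (adjusted p = 0.3649). None of the 3 rises passed once neighbours were subtracted, a run in which 11.3% of all genes passed instead of 15.6%. AARS1, at 0.22, was left with 0.10 (adjusted p = 0.4514). Around NARS1, 22 of the 50 fell, and its difference went from -0.34 to -0.20 (adjusted p = 0.1181). GARS1, SARS1 and WARS1 lay among neighbours with medians of -0.01, 0.03 and 0.04, and still fell, by 0.39 ± 0.09 (SE, adjusted p = 0.02254), 0.34 ± 0.08 (SE, adjusted p = 0.02409) and 0.26 ± 0.06 (SE, adjusted p = 0.029). YARS1 kept its size, -0.21, but did not pass (adjusted p = 0.06113).

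**Figure D5:**
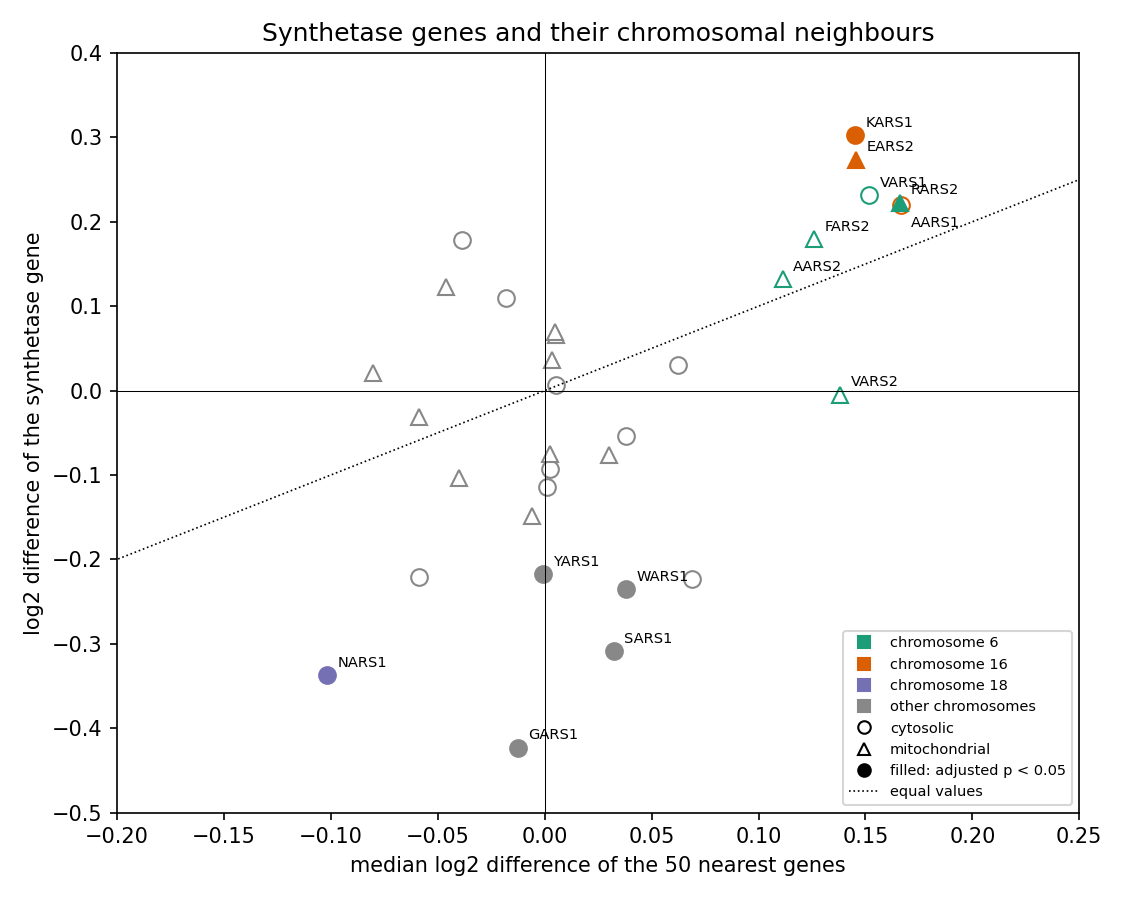
Log2 difference of each synthetase gene (vertical axis) against the median log2 difference of its 50 nearest genes (horizontal axis); circles are cytosolic, triangles mitochondrial, filled symbols past the threshold, colours mark chromosomes 6, 16 and 18, and the dotted line marks equal values. Members on chromosomes 6 and 16 have neighbour medians of 0.11 to 0.17, while GARS1, SARS1, WARS1 and YARS1 lie far below neighbours near 0.

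Set beside the promoter windows above, the measured genes with TGATGCAA did not share a direction. NARS1 fell, CARS1 read -0.22, IARS1 -0.05, TARS1 0.03 and AARS1 0.22, none of the last 4 past the threshold. GARS1, with the variant TTTCATCA, fell most. SARS1 and WARS1 fell and held neither form in their windows. YARS2, the mitochondrial match, read 0.02.

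Of 12 genes listed as sensing uncharged tRNA or responding to it, all measured, 6 fell, 0 rose and 6 did not pass (limma; at an unadjusted p under 0.05, 8 lower and 0 higher), with a median of -0.48, beside 7.35% lower among all genes. The list was drawn up with earlier results of these arrays known, so its count is not independent evidence. The charging of tRNA was not measured, and the count does not stand for it. CHAC1, a glutathione-degrading enzyme of the ATF4 response, read 0.41, 0.73 and 0.18 in the control line against -1.02, -1.29 and -1.02 in the myocilin line, a difference of -1.55 ± 0.13 (SE, adjusted p = 0.00016). SESN2, an mTORC1 inhibitor and leucine sensor, fell by 1.09, and TRIB3, a pseudokinase that binds ATF4, by 0.80. CEBPB and DDIT3, C/EBP family factors, fell by 0.72 and 0.73. IMPACT, an inhibitor of GCN2 that lies on chromosome 18, fell by 0.77. Each of these 6 falls was larger than that of any synthetase. ATF4 itself read 0.07, 0.23 and 0.08 against -0.14, -0.11 and 0.01, without overlap (-0.21, adjusted p = 0.0726). ASNS, asparagine synthetase, read -0.25 (adjusted p = 0.07381), and GCN1 and EIF2AK4, the activator and the sensor kinase, -0.13 and -0.10, not past the threshold. EIF2S1 and EIF2B5, also on the list, read 0.11 and 0.07 and did not pass (limma, adjusted p = 0.2323 and 0.5322). Control array 2 was the highest control for all 6 falls, as it was for the 5 synthetases that fell. It was also the highest control for XPOT, ELAC1 and TSEN15, which fell in a list below, and for 33.6% of all genes. In MTFMT and TSFM, which also fell, control array 3 was highest. The share among all genes that fell was not computed, so nothing particular to these genes is read from it.

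Genes that mature and export tRNA went both ways, with 3 falls and 2 rises among 16 measured of 17, beside 7.35% lower and 8.28% higher among all genes. XPOT, the exportin that carries tRNA out of the nucleus, read 0.00, 0.17 and 0.00 against -0.15, -0.18 and -0.27, a difference of -0.25 ± 0.07 (SE, adjusted p = 0.03334). ELAC1, a tRNA 3′ processing enzyme on chromosome 18, fell by 0.83 and TSEN15, a subunit of the tRNA splicing endonuclease, by 0.53. TSEN54, another subunit of that endonuclease, rose by 0.28, and TP53RK, a kinase of the complex that makes the t6A tRNA modification, by 0.31. RPP30, a ribonuclease P subunit, and ELAC2 read 0.20 (adjusted p = 0.05716) and 0.18 (adjusted p = 0.06351), so the list had no common direction.

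In the next 3 lists 1 or 2 genes passed in each, beside 15.6% of all genes, and nothing is read from these counts about the lists. Among 6 genes that make modified aminoacyl-tRNA, QRSL1, a subunit of the mitochondrial glutaminyl-tRNA amidotransferase on chromosome 6, rose by 0.24 (adjusted p = 0.02438). MTFMT, which formylates the mitochondrial initiator tRNA, fell by 0.30 (adjusted p = 0.01246). PSTK, the kinase of selenocysteine tRNA, read 0.19 (adjusted p = 0.06352), and SEPSECS, the next enzyme of that path, -0.17 (adjusted p = 0.1226). Of 7 measured mitochondrial translation factors, the elongation factor gene TSFM fell by 0.36 and the release factor gene MTRF1L, on chromosome 6, rose by 0.23. MTIF3, an initiation factor, read -0.21 (adjusted p = 0.0641). Of 5 measured cytosolic elongation factors, EEF1A2, the isoform that delivers charged tRNA in muscle and nerve, rose by 0.53 ± 0.06 (SE, adjusted p = 0.000898), from -0.49, -0.34 and -0.49 to 0.07, 0.07 and 0.14. Its ubiquitous counterpart EEF1A1 read -0.08 (adjusted p = 0.3457). The 2 measured genes of trans-editing and deacylation, DTD1 and PRORSD1P, read -0.15 (adjusted p = 0.2113) and 0.0093 (adjusted p = 0.9546).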

How the data were processed

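The authors deposited 1 log2 value per probe set and array, already normalised and summarised by a method that the labels do not give. The log base was inferred, since neither the labels nor the table names it. Each array's median is 0 and values spread on both sides of it. The values were also read as centred on each probe set, which is not stated, and so as relative values that hold no brightness. Depth has no counterpart, and the number of arrays limits the precision.

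Of 41751 probe sets, 37460 named exactly 1 gene, 1728 several, and 2563 were not listed in the annotation. Entrez identifiers gave current symbols from RefSeq for 37416, and probe sets of 1 gene were averaged (18338 genes). The lines were compared over all genes, and over all probe sets, by two-sided moderated tests in limma 3.58.1 under R 4.3.3 at an adjusted threshold of 0.05. Fits were tested on simulated data. Arrays were grouped by source name and numbered in accession order. The members and lists were chosen with earlier results of these data known. By rule, members past the threshold were given array by array, the others by range unless nearest 0 or with probe sets that disagree, and list genes where past the threshold or among the 2 smallest p of a list. Array values of CARS1, EPRS1, VARS1, AARS1, LARS2 and FARS2, and the differences of GCN1, EIF2AK4, EIF2S1 and EIF2B5, were added after their values were seen. The alternatives of the closing section changed 1 choice at a time. The planned marker check and protein comparison were not run.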

Additional observations from a re-analysis of the deposited data

How the results depend on the processing

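The 5 lower cytosolic members became 3 with 1 probe set per gene by ID, 3 after subtracting chromosomal neighbours and 0 by a Welch test per gene (unadjusted, 3 lower and 2 higher), which called 44 genes in all. Calls over all genes fell too, from 15.6% to 12.0% with 1 probe set per gene, 11.3% after subtracting neighbours and 0.240% by Welch. They were 12.1% without _x_at and _s_at probe sets, 14.9% with trend and robust fitting, and 8.80% to 12.1% leaving out 1 array. Without _x_at and _s_at probe sets 12 cytosolic members remained, of which 4 were lower. GARS1, whose only probe set is of the _s_at kind, had no value in that run. The 1 higher cytosolic member became 0 by the Welch test, 0 after subtracting neighbours and 0 with chromosomes 6, 16 and 18 left out, an alternative chosen after seeing the data, and 2 in the fit to probe sets. The 2 higher mitochondrial members became 1 with trend and robust fitting, 1 with _x_at and _s_at probe sets left out, 1 with 1 probe set per gene, 0 by the Welch test (unadjusted, 3), 0 after subtracting neighbours and 0 with chromosomes 6, 16 and 18 left out. The 0 lower mitochondrial members became 1 (CARS2) in the fit to probe sets. The mitochondrial median of 0.04 was 0.0694 over probe sets and -0.0057 with those chromosomes left out. Leaving out each array gave 1 to 5 lower and 1 to 2 higher cytosolic members, 0 to 1 higher mitochondrial members and 0 lower ones, with medians of -0.10 to -0.04 and 0.02 to 0.06. Quantile normalisation and array weights changed none of these counts. The cause of these changes was not tested, beyond the fewer arrays or probe sets in some fits. No paired analysis was possible because the lines share no replicate numbers in the labels. The values, read as centred on each probe set, hold no brightness, so dim probe sets could not be told from background.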
